A study of Mus musculus with 2 samples.

Results

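Costimulatory and coinhibitory receptors are the surface proteins that raise or lower the response of a T cell whose antigen receptor is engaged. The 10 genes described here were chosen by gene name in the GENCODE M21 annotation: Ctla4, Cd28, Icos, Pdcd1, Btla, Lag3, Tigit, Cd96, Cd226 and Havcr2. They are 10 of 55536 genes in the deposited gene tables and carry 28 annotated transcripts. The study sequenced polyadenylated RNA from mouse regulatory T cells, a CD4 T cell lineage that needs the transcription factor Foxp3 and holds other immune cells in check. There was 1 group of 2 technical replicate libraries from 1 biological replicate, so no conditions could be compared. The primary cells came from an adult male of 9 weeks, of the strain that the labels spell Foxp3GFP-DTRCD4CreERT2R26tdTomato. That name lists GFP-DTR at Foxp3, which joins a fluorescent reporter to a diphtheria toxin receptor, CreERT2, a tamoxifen-inducible Cre recombinase, after CD4, and tdTomato, a red fluorescent reporter, at R26. Both libraries carry all of these alleles, and how the cells were purified, whether tamoxifen or toxin was given, and whether both libraries came from the same RNA is not given in the sources used here. Every p-value therefore reflects the counting error of this pair of libraries alone, without any biological replicate.

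CD28 and ICOS deliver costimulation, and CTLA-4 competes with CD28 for the ligands CD80 and CD86 and can strip them from antigen-presenting cells, a main route by which regulatory T cells restrain other T cells. PD-1, encoded by Pdcd1, and BTLA recruit phosphatases through short tyrosine motifs in their cytoplasmic tails. TIGIT, CD96 and the costimulatory receptor CD226 share the ligand CD155, while LAG-3 binds MHC class II molecules and TIM-3, encoded by Havcr2, has several reported ligands.

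The libraries held 20891069 and 18571065 expected counts in genes. All 9 fixed markers of regulatory T cells and T cells were detected, meaning a TPM (a transcript abundance scaled for length and to a fixed total per library) of at least 1 in both libraries. Foxp3 itself had 88.6 and 83.6 TPM. Markers of other cells were measured as well. Of 7 natural killer cell markers 2 were detected, and the list summed to 21.6 and 13.8 TPM, with Klra8 at 0. Of 10 dendritic cell and macrophage markers 5 were detected, summing to 44.5 and 31.6 TPM. Of 5 B cell markers 2 were detected, summing to 41.3 and 40.9 TPM. Of the CD8 T cell genes, Cd8b1 was detected at 25.5 and 22.7 TPM, and Cd8a, at 0.71 and 0.66 TPM, was not. All 5 follicular helper T cell markers were detected, summing to 333 and 272 TPM. Sh2d1a, which other T cells express too, gave most of that sum, at 225 and 189 TPM. In bulk RNA, fewer cells of a type and less RNA per cell cannot be told apart.

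The receptors fall into groups that can be read in their coding sequences. The tails of CD28, CTLA-4 and ICOS carry a tyrosine, 2 residues of any kind and a methionine, the pattern known to bind phosphoinositide 3-kinase. Capitals mark the codons of that pattern in the leading coding transcripts, printed 5′ to 3′ on the plus strand of chromosome 1 from GENCODE M21 transcripts of mm10. The stretches lie in coding exons at chr1:60769681-60769716 for Cd28, chr1:60914634-60914669 for Ctla4 and chr1:60995548-60995583 for Icos.
Cd28-201: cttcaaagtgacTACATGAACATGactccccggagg
Ctla4-201: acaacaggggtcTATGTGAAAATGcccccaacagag
Icos-202: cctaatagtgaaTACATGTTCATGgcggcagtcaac
The searched pattern was a tyrosine codon, any 2 codons and a methionine codon, in frame on the coding strand, within the last 100 codons. These 3 receptors held it and the other 7 did not, beside 6.42% of 19776 genes with a coding transcript (1269 genes).

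The inhibitory tyrosine motif called ITIM was found in the same window in 4 of the 10 receptors (Btla, Cd96, Pdcd1 and Tigit), beside 16.9% of genes. The related switch motif, ITSM, was found in Btla and Pdcd1, beside 1.72% of genes. As searched, the same tyrosine could not match both the ITIM and the ITSM. The Pdcd1 tail holds one of each, shown here with the motif codons in capitals, on the minus strand at chr1:94039476-94039517 for the ITIM and chr1:94039407-94039448 for the ITSM.
Pdcd1-201 ITIM: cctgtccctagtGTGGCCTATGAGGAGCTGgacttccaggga
Pdcd1-201 ITSM: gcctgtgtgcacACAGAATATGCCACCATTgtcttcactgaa
A match is a run of letters and says nothing of whether the protein binds its partner in these cells. Lag3, Havcr2 and Cd226 held none of the 3 patterns in this window.

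All 10 receptors were detected, beside 10472 of 22028 protein-coding genes (47.5%). Their median of the mean TPM was 121, beside 25.5 over the detected protein-coding genes. The levels spanned more than 100-fold and fell into a high set of 8 genes from 37.5 TPM upward and a low pair at 2 to 3 TPM, with a gap of 11.2-fold between Tigit and Lag3. Summed over the 10 genes, TPM was 1256 and 1182. At thresholds of 5 and of 10 TPM, 8 of the 10 were still detected.

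**Figure D1:**
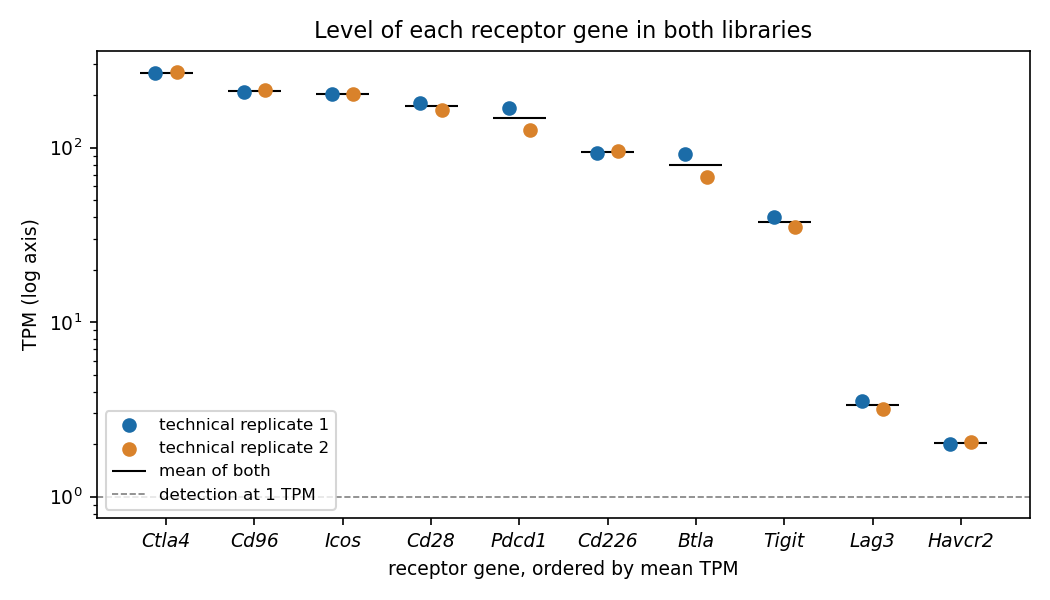
TPM (log axis) of the 10 receptor genes in technical replicate 1 (blue) and technical replicate 2 (orange), ordered by mean TPM, with a black bar at the mean and a dashed line at 1 TPM. Ctla4 is highest at 269 TPM, and Lag3 and Havcr2 sit apart from the other 8 genes near the detection line.

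Ctla4, the receptor that competes for CD80 and CD86, was the most abundant (ENSMUSG00000026011.13, chr1:60887000-60915832, plus strand, mm10). Its TPM was 266 and 271 in technical replicates 1 and 2, a mean of 269 ± 3.41 (SD, n = 2 technical libraries, as for every mean below), from 7033 and 6080 counts. The libraries lay within the counting error of each other, and the gene ranked 607 among all genes by mean TPM, above 94.9% of detected protein-coding genes. Rpl18-ps1, a processed pseudogene on the same strand inside the Ctla4 gene, took 60.6 and 44.5 counts, and the sharing of reads between them cannot be resolved here.

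Cd28, the receptor of the primary costimulatory signal (ENSMUSG00000026012.2, chr1:60716800-60773359, plus strand), had 181 and 164 TPM, a mean of 173 ± 11.6. It had the most counts of the 10 genes, 10263 and 7906, since its leading transcript is 4347 bases long. Its range of TPM overlapped that of the next gene, Pdcd1. No other pair of neighbours in the order of levels overlapped in TPM. The deposited 95% credibility bounds, however, overlapped in both libraries for Cd96 and Icos. They also overlapped for Cd226 and Btla in technical replicate 1 and for Lag3 and Havcr2 in technical replicate 2.

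Icos, the costimulatory receptor for ICOS ligand (ENSMUSG00000026009.14, chr1:60977927-61000320, plus strand), had 202 and 203 TPM, a mean of 202.2 ± 0.70, from 6132 and 5025 counts. It had the smallest difference in TPM between the libraries among the 8 more abundant receptors. The unclassified gene model Gm37039 overlaps it on the same strand and took 55 and 72 counts.

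These 3 genes are neighbours on chromosome 1. Cd28 and Ctla4 are 113.6 kb apart, with 6 annotated genes and no protein-coding gene between them. Ctla4 and Icos are 62.1 kb apart, with only the model Gm11582 between them, which was listed at 0 TPM in both libraries. Pdcd1 lies on the same chromosome but 33038 kb farther on. The 4 chromosome 1 receptors summed to 817 and 765 TPM, 65.1% and 64.8% of the TPM of all 10.

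Pdcd1, which encodes PD-1 (ENSMUSG00000026285.7, chr1:94038305-94052553, minus strand), had 169 and 127 TPM, a mean of 148 ± 29.4, from 4476 and 2857 counts. Its SD was the largest among the 10 genes. Btla, which encodes the receptor for HVEM (ENSMUSG00000052013.15, chr16:45224315-45257670, plus strand), had 91.5 and 68.1 TPM, a mean of 79.8 ± 16.5, from 3647 and 2457 counts. For both genes the level in technical replicate 1 was the higher, as it also was for Cd28, Tigit and Lag3.

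Of the CD155 receptors, Cd96, for which both inhibitory and costimulatory effects have been reported, was the most abundant (ENSMUSG00000022657.9, chr16:46035657-46120251, minus strand). It had 208 and 212 TPM, a mean of 210.1 ± 3.37, from 6262 and 5429 counts, and stood second only to Ctla4. Cd226, the costimulatory member (ENSMUSG00000034028.16, chr18:89176967-89272229, plus strand), had 93.4 and 95.7 TPM, a mean of 94.5 ± 1.61, from 2264 and 1482 counts. Tigit, the inhibitory member (ENSMUSG00000071552.5, chr16:43648867-43664146, minus strand), had 40.05 and 35.0 TPM, a mean of 37.5 ± 3.60, from 492 and 364 counts. Their order was the same in both libraries and their ranges did not overlap.

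Lag3, the receptor for MHC class II (ENSMUSG00000030124.2, chr6:124904361-124911705, minus strand), had 3.52 and 3.17 TPM, a mean of 3.345 ± 0.247, from 97 and 55 counts. Havcr2, which encodes TIM-3 (ENSMUSG00000020399.14, chr11:46454935-46481255, plus strand), had 1.99 and 2.06 TPM, a mean of 2.025 ± 0.0495, from 75 and 66 counts. Both were low and still well above the level that 3 counts would give, which was 0.109 and 0.173 TPM for Lag3 and 0.0796 and 0.0936 TPM for Havcr2. They stood above only 11.5% and 5.55% of detected protein-coding genes. These floors cover counting error only, because the tables carry no molecular identifiers and amplified copies of 1 molecule may be counted more than once.

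Receptors that share ligands, and some other pairs, were next set against each other on the TPM scale. Ctla4 exceeded Cd28 by 1.47-fold in technical replicate 1 and by 1.65-fold in technical replicate 2, so CTLA-4 transcripts made up 59.6% and 62.3% of the transcripts of the CD80 and CD86 receptors. Among the CD155 receptors, Cd96 made up 60.9% and 61.9%, Cd226 27.4% and 27.9%, and Tigit 11.7% and 10.2%. Tigit was 0.429 and 0.365 times Cd226, and Cd96 was 2.22 times Cd226 in both libraries. In the other pairs, which were not chosen for a shared ligand, Icos was 1.12 and 1.23 times Cd28, and Pdcd1 was 0.632 and 0.468 times Ctla4. Summed by role, the 6 coinhibitory genes (without Cd96) had 572 and 507 TPM and the 3 costimulatory genes had 476 and 463 TPM. These are ratios of RNA, and protein at the cell surface was not measured.

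The ratios that involve Cd226 and Icos rested on how reads were divided among transcripts. When only transcripts with a consensus coding sequence (CCDS, a coding model that the annotation groups share) were summed, the mean Tigit to Cd226 ratio was 1.62, against 0.397 for the whole genes, so the order of the 2 receptors turned. The mean Icos to Cd28 ratio became 0.731, against 1.17. The mean Cd96 to Cd226 ratio became 9.21, against 2.22. The Ctla4 to Cd28 ratio was 1.75, against 1.56, and kept its direction. Summed by role over CCDS transcripts alone, a sum added after seeing the data, the 3 costimulatory genes had 305 and 275 TPM and the 6 coinhibitory genes 570 and 505 TPM, so the gap between the roles widened.

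The transcripts behind these ratios differ between genes. Cd96, Pdcd1 and Tigit have 1 annotated transcript each, and Havcr2-201 held every count of Havcr2. Ctla4-201, the full-length receptor with 4 exons, made up 98.9% and 99.1% of Ctla4 TPM. The soluble form of CTLA-4 is known to arise when the exon of the transmembrane segment is left out, and the model Ctla4-202 leaves out exon 3, of 110 bases at chr1:60913219-60913328. The junction from exon 2 is shown for both, with the next exon in capitals.
Ctla4-201: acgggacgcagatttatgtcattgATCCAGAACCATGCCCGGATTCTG
Ctla4-202: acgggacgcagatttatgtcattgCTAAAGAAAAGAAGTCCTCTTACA
Both runs start at chr1:60912747 and are joined across an intron, the first ending at 60913242 and the second at 60914636. Ctla4-202 was assigned 17.04 and 12.97 counts, or 2.14 and 1.92 TPM. The deposited 95% credibility bounds ran from 0.183 to 5.89 TPM and from 0.0871 to 7.20 TPM, so its level was poorly resolved. Its share of the gene was 0.80% and 0.71% by TPM and 1.09% and 1.30% by posterior mean TPM.

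**Figure D2:**
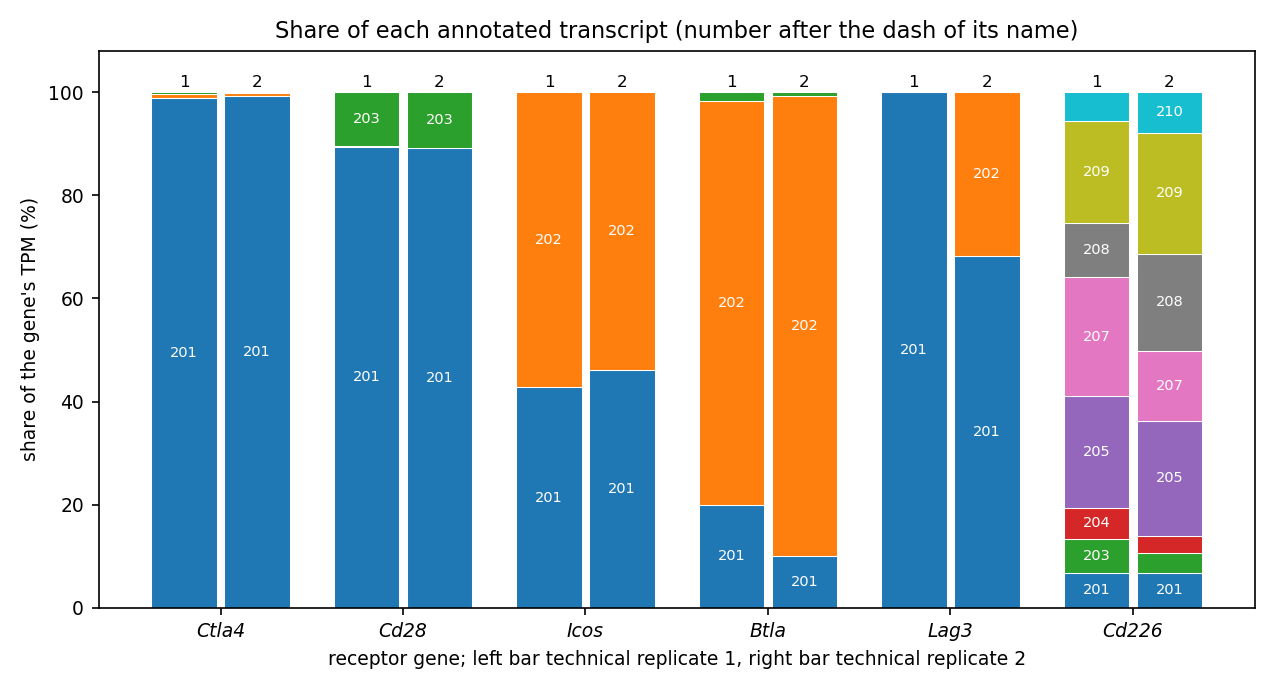
Share of the TPM of each gene (%) assigned to each annotated transcript, for the 6 receptor genes with counts on more than 1 transcript, with technical replicate 1 on the left and technical replicate 2 on the right of each pair of bars. Ctla4 is almost wholly Ctla4-201, Icos is divided between 2 transcripts, and Cd226 is divided among 8.

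Cd28-201, the only Cd28 transcript with a coding sequence, made up 89.3% and 89.2% of the gene's TPM. Cd28-203, annotated as a retained intron, made up 10.6% and 10.8%. The shares of Cd28 hardly moved between the libraries.

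Icos was divided between transcripts that end differently. Icos-202, the CCDS transcript of 3241 bases and 5 exons, had 116 and 109 TPM, 57.3% and 53.9% of the gene. Icos-201, of 810 bases and 4 exons, had 86.2 and 93.4 TPM, or 42.7% and 46.1% of TPM, from only 15.1% and 16.9% of the counts, since TPM divides by length. Both models share their coding sequence up to chr1:60995608 and then part, Icos-201 running on into the intron and Icos-202 splicing to a last exon at chr1:60997701-61000320. Capitals mark the bases past the shared position, to the stop codon.
Icos-201: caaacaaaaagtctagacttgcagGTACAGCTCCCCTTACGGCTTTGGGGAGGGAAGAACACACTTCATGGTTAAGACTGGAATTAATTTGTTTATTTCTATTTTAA
Icos-202: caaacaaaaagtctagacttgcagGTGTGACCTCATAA
The runs lie at chr1:60995585-60995691 and, across the intron, chr1:60995585-60997714. Icos-201 encodes 223 codons and Icos-202 encodes 200, and the signalling motif printed above lies in the part that both share. Icos-201 ends inside the intron of Icos-202, so reads from unspliced Icos RNA would also fall on its last exon, and their part in its level was not tested.

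Btla has 2 CCDS transcripts that part at the splice acceptor of exon 4, which lies 3 bases earlier in Btla-201 (chr16:45244153) than in Btla-202 (chr16:45244156), and in the length of the last exon, which is 1634 bases longer in Btla-202. The 3 extra bases are in capitals.
Btla-201: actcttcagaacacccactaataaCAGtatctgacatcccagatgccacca
Btla-202: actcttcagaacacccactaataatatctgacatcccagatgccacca
Both runs lie at chr16:45242718-45244179 with the intron removed. Btla-202 led with 71.6 and 60.7 TPM. Btla-201 had 18.3 and 6.87 TPM, and its deposited credibility bounds, 12.99 to 20.03 and 3.63 to 8.79 TPM, did not overlap. Its share of the gene was 19.98% in technical replicate 1 and 10.1% in technical replicate 2.

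Cd226 was the most divided receptor, with 10 annotated transcripts of which 8 were assigned counts. Cd226-207, a CCDS transcript of 4494 bases, took 59.6% and 46.4% of the gene's counts but only 21.5 and 12.9 TPM. The 5 short models with effective lengths under 1000 bases took 17.2% and 25.7% of counts and 58.0% and 68.0% of TPM. Among them, Cd226-205 had 20.2 and 21.4 TPM, Cd226-209 had 18.5 and 22.5 TPM, and Cd226-208 had 9.84 and 17.98 TPM. Cd226-208 and Cd226-209 are marked in the annotation as incomplete at their 3′ ends. The 3 CCDS transcripts together had 27.8 and 19.4 TPM, 29.7% and 20.3% of the gene.

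The level of Cd226 thus depended on the scale. Its TPM was 1.02 times as high in technical replicate 2 as in technical replicate 1, while its scaled count was 0.770 times as high. The effective length, averaged over its transcripts by their abundance, was 1717 bases in technical replicate 1 and 1295 bases in technical replicate 2, a ratio of 0.754. Lag3 showed the same kind of shift at low depth: Lag3-202, a non-coding transcript of 426 bases, was assigned 0 and 4.53 counts yet made up 31.8% of Lag3 TPM in technical replicate 2.

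The libraries were then compared gene by gene on counts with a two-sided exact binomial test. A total of 5736 of 16553 tested genes were called at an adjusted p under 0.05, which is 34.7%, with 21.6% higher and 13.0% lower in technical replicate 2. Of the 10 receptors, 4 were lower in technical replicate 2, 0 were higher and 6 were not called. The share of receptors called in either direction lay near that of all genes. The median log2 ratio was −0.17 over the receptors and 0.02 over all genes tested.

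**Figure D3:**
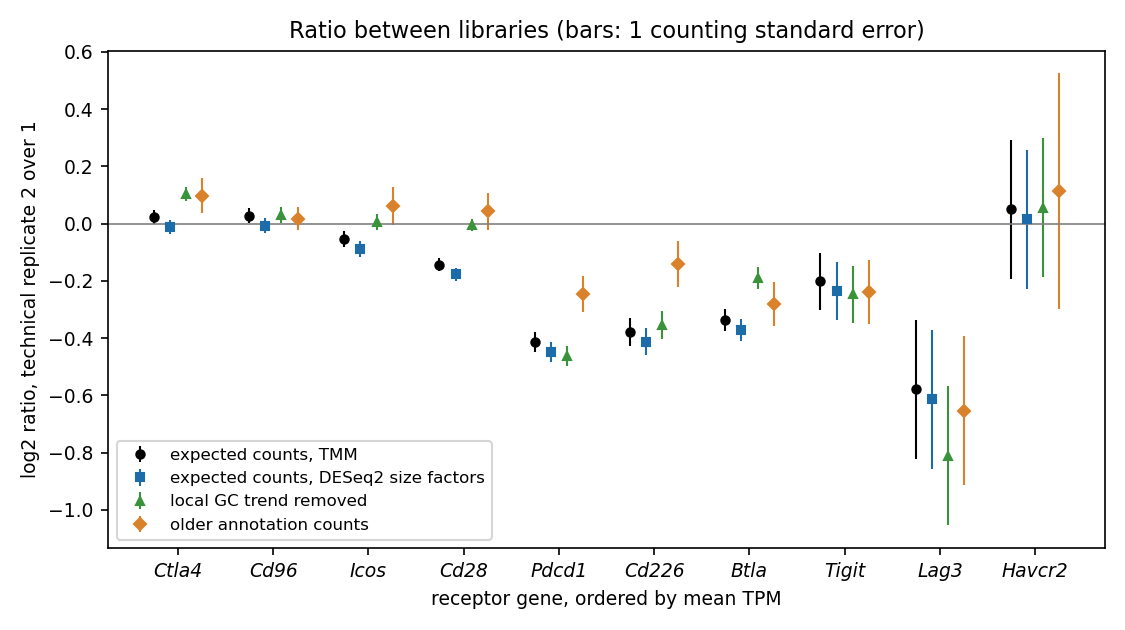
Log2 ratio of technical replicate 2 over technical replicate 1 for each receptor gene under 4 ways of counting or scaling, with bars of 1 counting standard error. Pdcd1, Btla, Cd226, Tigit and Lag3 lie below 0 in all 4, while Cd28 lies at −0.14 on the main scale and at −0.01 after the local GC trend is removed.

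Pdcd1 fell by 0.41 ± 0.03 (log2, counting standard error), with an adjusted p of 2.76e-32 in the exact binomial test with Benjamini-Hochberg adjustment. Btla fell by 0.34 ± 0.04 (adjusted p = 3.37e-18, same exact test). In the older whole-number counts of the same libraries both were again lower, by 1187 to 926 counts for Pdcd1 (adjusted p = 0.000718, exact binomial test) and by 799 to 608 counts for Btla (adjusted p = 0.00192, exact binomial test), in a table where 27.0% of 11542 tested genes were called and 7.75% were lower. All 5 follicular helper T cell markers were lower in technical replicate 2 as well, beside 13.0% of all genes tested, and 1 of the 5 was lower with edgeR's exactTest at the measured spread between the libraries. Among them were Cxcr5, a B cell follicle homing receptor, at 75.4 and 64.2 TPM, and Bcl6, the regulator of that fate, at 20.7 and 14.3 TPM. Il21, a cytokine of helper T cells, stood at 5.96 and 1.25 TPM. Of the 9 regulatory T and T cell markers, 5 were lower and 1 was higher, beside 13.0% and 21.6% of all genes tested. Trac, a T cell receptor constant segment, was among the lower, at 3019 and 2542 TPM. Foxp3 was not called, at a log2 ratio of −0.11 ± 0.05 (adjusted p = 0.0606, exact binomial test). That is a larger drop than for Il2ra and Trbc2, both called lower at −0.07. With DESeq2 size factors 7 of the 9 markers were lower, and with total counts 8, beside 16.8% and 20.3% of all genes tested. The part of these markers' cells in the Pdcd1 and Btla values was not tested.

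Cd226 fell by 0.38 ± 0.05 (adjusted p = 3.20e-14, exact binomial test), but the older counts of 711 and 596 did not pass (adjusted p = 0.206, exact binomial test). In these same libraries, the natural killer cell genes Prf1, at 13.2 and 8.55 TPM, and Klrb1c, at 6.38 and 3.87 TPM, were also lower. They were 2 of the 4 markers of that list with enough counts to test, beside 13.0% of all genes tested. Cd226 is known on natural killer cells too, and the part of those cells in its value was not tested. Cd28 fell by 0.14 ± 0.02 (adjusted p = 3.00e-10, exact binomial test). The Cd28 call ended when the local trend with GC content was removed, at −0.01 (adjusted p = 0.913), and its ratio in the older counts was 0.04 (adjusted p = 0.710). With the GC trend removed, 5 receptors were lower, beside 14.0% of genes, and Ctla4 was higher, at 0.10 ± 0.03 (adjusted p = 0.000244, exact binomial test), beside 19.9% of genes.

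The other 6 receptors were not called. Lag3 had a log2 ratio of −0.58 ± 0.24 (adjusted p = 0.0518, exact binomial test), Tigit −0.20 ± 0.10 and Icos −0.05 ± 0.03, and all 3 passed when DESeq2 size factors replaced TMM, at −0.61, −0.24 and −0.09. With those factors 7 receptors were lower, beside 16.8% of all genes tested, and with total counts also 7, beside 20.3%. Ctla4 and Cd96, with ratios of 0.02 and 0.03, moved to −0.01 and −0.01 under those factors, so the sign of both depended on the scaling. Havcr2 had a ratio of 0.05 ± 0.24, an error wide enough that a difference of the size seen for Pdcd1 was not detectable at this depth. These p-values hold for counting error alone: with edgeR's exactTest at the spread measured between the libraries over 9903 genes (a coefficient of variation of 0.195), 130 genes (0.785%, with 0.356% lower) and 0 receptors were called. The measured spread was taken from these same libraries and counts every difference between them as noise. A call lost at that spread therefore cannot tell whether the libraries differ. With an assumed dispersion of 0.01, exactTest called 1784 genes (10.8%, with 1.49% lower) and 0 receptors.

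The older table counted fewer of the reads. For Cd28 it held 1030 and 981 counts, 10.04% and 12.4% of the newer counts, whereas for Tigit it held 377 and 295, or 76.6% and 81.0%. The coding sequence makes up 15.0% of Cd28-201 and 78.7% of Tigit-201. Across the 10 receptors the share of reads kept followed the coding share, with a Spearman's rho of 0.794 and 0.770, and across 8825 genes rho was 0.636 and 0.637. These are descriptions across genes, which share the same libraries and are not replicates.

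**Figure D4:**
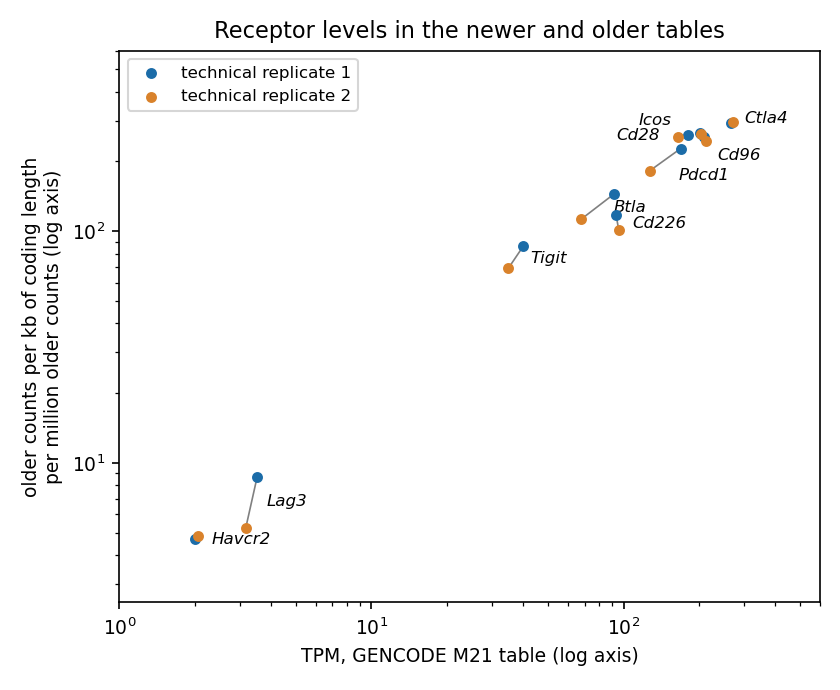
TPM of each receptor gene from the newer annotation (horizontal, log axis) against older whole-number counts per kb of coding length in 1000000 older counts (vertical, log axis), with the 2 libraries of a gene joined by a line. The 4 genes at the top lie close together on the vertical axis, and Lag3 and Havcr2 lie far below the rest on both axes.

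No source used here states which bases the older table counted, and Cd96 kept only 44.4% and 48.0% of its counts with a coding share of 82.7%, so a scale by coding length is approximate. The older counts were set per kb of coding length in 1000000 older counts, which gave an order close to that of TPM, with a Spearman's rho of 0.952 across the 10 genes and 5 genes in the same place. Ctla4 again led at 294 ± 3.37, followed by Icos at 264 ± 1.77, Cd28 at 258 ± 4.06 and Cd96 at 249.8 ± 7.01. Pdcd1 had 205 ± 32.0, Btla 129 ± 22.3, Cd226 109 ± 11.6 and Tigit 77.7 ± 11.98. On this scale Ctla4 exceeded Cd28 by only 1.12-fold and 1.16-fold, and Tigit was 0.733 and 0.684 times Cd226. Lag3 and Havcr2 were again the lowest, at 6.94 ± 2.45 and 4.77 ± 0.0892.

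Of 18 genes on a list meant to hold ligands of these receptors, 10 were detected. The list left out MHC class II genes and held Cd276 and Vtcn1, which are not established ligands of these receptors. The median over the list was 5.67 TPM, beside 0.735 over all protein-coding genes. The most abundant were Lgals9, which encodes galectin-9, at 264 ± 0.658 TPM, Hmgb1, a chromatin protein that also acts outside cells, at 172 ± 19.6 TPM, Cd274, which encodes PD-L1, at 42.2 ± 0.467 TPM and Cd86 at 40.05 ± 5.30 TPM. Lgals9 and Hmgb1 are reported partners of TIM-3, the least abundant receptor. The 4 listed genes Nectin3, Clec4g, Cd276 and Vtcn1 had 0 counts. In the library comparison, 2 of the 12 ligands tested were higher in technical replicate 2 and 1 was lower, beside 21.6% and 13.0% of all genes tested. The lower count was 2 with total counts in place of TMM, beside 20.3% of all genes tested.

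**Figure D5:**
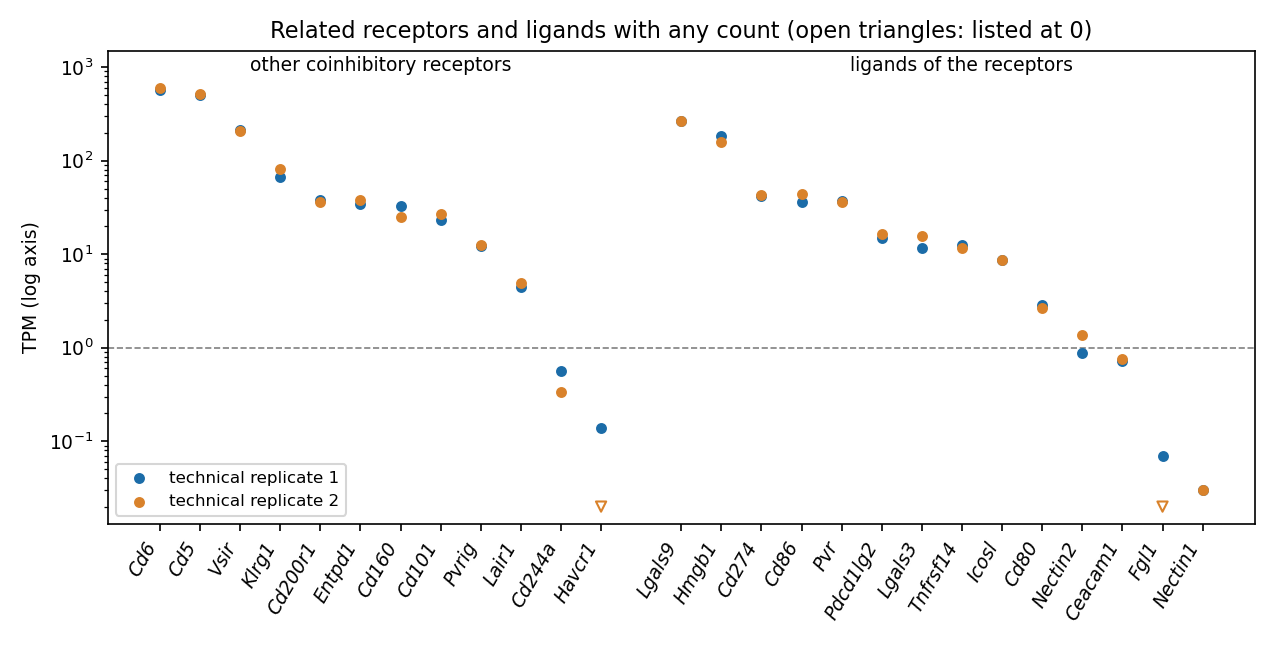
TPM (log axis) of the genes listed as other coinhibitory receptors (left) and as ligands (right) that had any count. Both libraries are shown as points, with open triangles for a library listed at 0 and a dashed line at 1 TPM. Cd6 and Cd5 lie above every receptor among the 10, and Cd80 lies far below Cd86.

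Some direct partners outside that rule were picked after their values were seen. Cd80, the other ligand of CD28 and CTLA-4, had 2.84 and 2.68 TPM, far below Cd86 at 36.3 and 43.8 TPM. Pvr, which encodes CD155, had 37.5 and 36.1 TPM, Icosl had 8.58 and 8.57 TPM, and Tnfrsf14, which encodes the BTLA ligand HVEM, had 12.5 and 11.7 TPM. RNA for the ligands CD86, PD-L1 and CD155 was thus measured in the same preparation as their receptors. Markers of antigen-presenting cells were measured there too, among them H2-Ab1, an MHC class II chain, at 15.8 and 11.0 TPM. Of the 9 tested markers of that list, 3 were lower in technical replicate 2, beside 13.0% of all genes tested. Cd86 was higher there, at a log2 ratio of 0.25 ± 0.06 (adjusted p = 0.000163, exact binomial test). The ligand genes Cd80, Cd274, Pvr, Icosl and Tnfrsf14 were not called. Which cells held the ligand RNA was not tested.

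Of 12 genes on a list meant to hold other coinhibitory receptors, 10 were detected and the list median was 32.5 TPM. The list held Entpd1, which encodes an ectoenzyme. In technical replicate 2, 4 of the 11 tested were higher, Entpd1 among them, and 1 was lower, beside 21.6% and 13.0% of all genes tested. With total counts, 1 was higher and 1 lower, beside 18.7% and 20.3% of all genes tested. Cd6 and Cd5, scavenger-type receptors that dampen antigen receptor signals, had 589 ± 20.9 and 507 ± 7.49 TPM, more than Ctla4. Vsir, which encodes VISTA, had 209.8 ± 1.61 TPM and Klrg1, a lectin-like inhibitory receptor, had 74.1 ± 10.2 TPM.

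All 20 genes of the costimulatory signalling list reached detection (list median 73.2 TPM), and 8 were higher and 5 lower in technical replicate 2, beside 21.6% and 13.0% of all genes tested. With total counts, 8 were higher and 9 lower, beside 18.7% and 20.3% of all genes tested. Among the most abundant were Lck, the kinase that starts antigen receptor signalling, at 1342 ± 39.9 TPM, Pik3cd, a catalytic subunit of phosphoinositide 3-kinase, at 329 ± 6.11 TPM and Vav1, an exchange factor downstream of CD28, at 199 ± 4.22 TPM.

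Of 15 genes on a list meant for coinhibitory signalling, 13 were detected (list median 51.65 TPM). In technical replicate 2, 6 of the 13 tested were higher and 2 lower, beside 21.6% and 13.0% of all genes. The 2 lower were Themis and Sh2d1a, which was also used here as a follicular helper T cell marker. With total counts, 4 were higher and 4 lower, beside 18.7% and 20.3% of all genes tested. The most abundant were Ptpn6, which encodes the phosphatase SHP-1, at 299 ± 15.9 TPM, Ppp2r1a, a scaffold of protein phosphatase 2A, at 254 ± 7.83 TPM, Sh2d1a, the adaptor SAP, at 207 ± 25.3 TPM and Inpp5d, the lipid phosphatase SHIP-1, at 198 ± 7.87 TPM. Pag1, a membrane adaptor for the kinase CSK, rose from 13.7 to 30.0 TPM in technical replicate 2, a log2 ratio of 1.14 ± 0.07 (adjusted p = 7.51e-55, exact binomial test). That call ended with exactTest at the measured spread between the libraries, which counts this same difference as noise.

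Of 18 genes on a list meant for the trafficking and cleavage of CTLA-4 and LAG-3, 16 were detected (list median 111 TPM). In technical replicate 2, 6 of the 18 tested were higher and 4 lower, beside 21.6% and 13.0% of all genes. With total counts, 5 were higher and 7 lower, beside 18.7% and 20.3% of all genes tested. Arf1, a small GTPase of vesicle formation, had 416 ± 1.14 TPM, and Ap2m1, the adaptor subunit that draws CTLA-4 into clathrin-coated pits, had 383 ± 11.99 TPM. Rab7, of late endosomes, had 254 ± 5.46 TPM and Cmtm6, a stabiliser of PD-L1 at the cell surface, had 197 ± 2.62 TPM. Def6, an exchange factor tied to CTLA-4 recycling, rose from 102 to 195 TPM (log2 1.03 ± 0.03, adjusted p = 2.50e-204, exact binomial test) and Clta, a clathrin light chain, rose from 56.7 to 123 TPM (log2 1.11 ± 0.06, adjusted p = 4.23e-72, exact binomial test). Both calls ended with exactTest at the measured spread between the libraries, which counts these same differences as noise. Such differences of at least 2-fold between the libraries were found for 6.46% of all tested genes and for none of the 10 receptors.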

How the data were processed

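Per the text deposited beside the tables, the build is mm10, with GENCODE M21 for the newer gene and transcript tables and M4 for the older gene table. Aligner, quantifier and counting tool are not given in the sources used here. Per the file headers, the authors deposited expected counts and posterior mean counts (estimated reads, rounded here for tests), TPM scaled for effective length and depth, a posterior mean TPM signal with 95% credibility bounds, and the percent of each gene's TPM taken by a transcript. The older table holds deposited whole-number counts. Of 81881 rows, 26345 named no gene (0.307% and 0.242% of counts) and were left out.

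Genes with at least 10 counts over both libraries were compared by a two-sided exact binomial test scaled by TMM (edgeR 4.0.16, factors 1.02 and 0.978), Benjamini-Hochberg adjusted at 0.05, with 0.5 added to counts for ratios. No quasi-likelihood fit was possible with 1 group. The script was tested on simulated data. Alternatives were DESeq2 1.42.0 size factors, total counts, other filters, edgeR's exactTest, posterior means, the older counts, each library alone and, added after seeing the data, removal of the local GC trend (501 genes).

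The 10 receptors and all lists were chosen with earlier results of these data known. Named were all 10, their transcripts at 10% or more, the 4 most abundant detected genes of each other list, and any list gene called at 2-fold or more; 1 gene that this rule names is not reported here.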

Additional observations from a re-analysis of the deposited data

How the results depend on the processing

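No paired analysis was possible because the study has 1 group, so no replicate numbers are shared between groups. Leaving out either library kept all 10 receptors detected. Of the 10, 4 were lower in technical replicate 2, beside 13.0% of all genes tested. The count was 7 with DESeq2 size factors (beside 16.8%), 7 with total counts (20.3%) and 2 in the older counts (7.75%). It was 0 with exactTest at the assumed dispersion (1.49%) and 0 at the measured dispersion (0.356%). Once the GC trend was removed, 5 were lower, beside 14.0%, and 1 receptor, Ctla4, was higher, beside 19.9%. Genes called numbered 5736, against 3120 in the older table, and 1784 and 130 with exactTest at the assumed and the measured dispersion. The split of genes higher against lower was 3581 to 2155 with TMM, 3281 to 2783 with size factors and 3088 to 3356 with total counts. Cd28 turned to 0.0429 in the older counts; the cause was not tested.

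With CCDS transcripts alone, the ratios were 1.75 for Ctla4 over Cd28, 1.62 for Tigit over Cd226, 9.21 for Cd96 over Cd226 and 0.731 for Icos over Cd28. With posterior means Cd96 over Cd226 was 2.18. Levels were lower on that scale for every receptor but Lag3, with a median of 109 TPM against 121. Ctla4, for example, had a mean of 241 TPM against 269. The deposited credibility bounds belong to the posterior mean scale and not to the TPM printed beside them. With total counts, 1 gene on the list of other coinhibitory receptors was higher. On the other lists, 2 ligands, 9 costimulatory signalling genes, 4 coinhibitory signalling genes and 7 trafficking genes were lower. Over all genes tested, 18.7% were higher and 20.3% lower with total counts. After GC removal, 2 genes on the list of other coinhibitory receptors and 1 ligand were higher, beside 19.9% of all genes tested. Depth limits Lag3 and Havcr2 most, with 97 and 55 counts and with 75 and 66 counts.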
